A study of Mus musculus with 4 samples.

Results

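The genes described here are 10 transcription regulators of paraxial mesoderm and somites, Meox1, Meox2, Tcf15, Pax3, Msgn1, Mesp2, Uncx, Ripply2, Ebf1 and Ebf2, 10 of 20660 genes that the arrays name. They were taken by symbol, with every probe whose RefSeq accession belongs to that symbol, which gave 11 probes. Their levels were read in Flk-1-positive cells derived from the EB5 line of mouse embryonic stem cells, which carried a reporter for Hoxb6 based on red fluorescent protein (RFP). After 6 days on OP9, a mouse stromal feeder line, cells carrying Flk-1 (the VEGF receptor encoded by Kdr) were sorted into an RFP-positive and an RFP-negative fraction. Both fractions thus share the line, the reporter construct, the feeder, the day and the Flk-1 gate, and were separated by RFP signal. Whether they also differ in cell make-up was not tested. There were 2 one-colour arrays per fraction, 4 in all, and that number limits the precision of every value. Nothing in the labels says that the 2 arrays of a fraction came from separate cultures, so the p-values measure the spread between these samples, which may be technical.

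Paraxial mesoderm is the strip of mesoderm on either side of the neural tube that segments into somites, the forerunners of vertebrae, ribs, dermis and skeletal muscle. Tbx6 and Msgn1 act in the presomitic mesoderm before it segments. A clock of Notch, Wnt and FGF feedback genes paces segmentation, and Mesp2 with Ripply2 sets each new boundary. Tcf15, Meox1, Meox2, Pax3 and Uncx then act in the formed somite. In embryos and in differentiating stem cells, Flk-1 marks mainly lateral and extraembryonic mesoderm and its blood and vessel derivatives, while paraxial mesoderm is known for Pdgfra.

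All 4 arrays lay on 1 slide and were scanned at 1 time. Between 55.2% and 59.3% of the non-control spots of an array were marked by the scanner software as well above background, and no spot was saturated. RFP-positive replicate 2 stood apart, with Pearson correlations of 0.950 to 0.964 with the other arrays over 13431 genes (genes are not independent replicates), against 0.974 to 0.982 among the other 3. The highest, 0.982, was across fractions, between RFP-negative replicate 1 and RFP-positive replicate 1. Within fractions it was 0.980 (RFP-negative) and 0.964 (RFP-positive), so the arrays did not group by fraction. Kdr was well above background in both fractions, at 4.25 ± 0.11 (SD, n = 2) in RFP-negative and 4.39 ± 0.03 (SD, n = 2) in RFP-positive cells. No array had the Hoxb6 probe well above background, so the transcript gave no check of the RFP labels. Log2 values here and below are relative to the 75th percentile of the array, and a difference is the RFP-positive mean less the RFP-negative one.

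Meox1 and Tcf15 were higher on both RFP-positive arrays than on both RFP-negative arrays, by about 2-fold, and Pax3 was slightly lower there on a dim probe. Mesp2, Ripply2, Uncx and Ebf1 were present in both fractions with overlapping values, and Msgn1 differed more between the RFP-negative arrays than between the fractions. Meox2 and Ebf2 were well above background on none of the 4 arrays. Of the 8 regulators tested, 0 passed an adjusted p of 0.05 in limma's moderated test with Benjamini-Hochberg adjustment over 13433 genes. The background is 0% of all genes tested, with a smallest adjusted p of 0.110, and 872 genes (6.49%) had an unadjusted limma p under 0.05. At that unadjusted level 2 of the 8 were higher, Meox1 and Tcf15 (2.77% of all genes tested were), and 0 were lower (3.72%). The regulators were chosen with earlier results of these data known, so these shares are a description only. By size, 0 of the 8 had both arrays of one fraction at least 2-fold above both of the other, against 1.36% of all genes tested, 0.469% higher and 0.893% lower in RFP-positive cells. The fractions did not overlap for 3 of the 8, against 40.3% of all genes tested, so that share is near the background. The median difference of the 8 was −0.13, beside −0.05 over all genes tested, and the median size was 0.23 beside 0.27. An exact permutation test of 2 arrays against 2 cannot go below a two-sided p of 0.333.

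**Figure D1:**
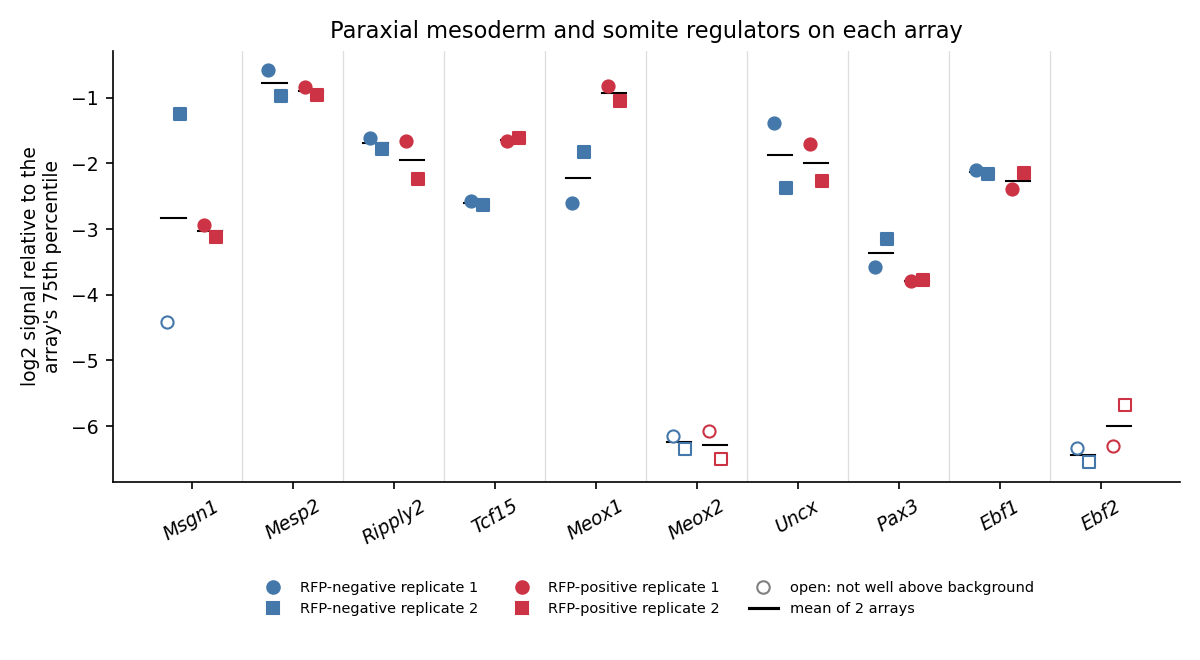
Log2 signal relative to the 75th percentile of the array (vertical axis) for each of the 10 regulators (horizontal axis), with 1 point per array, blue for RFP-negative and red for RFP-positive, circles for replicate 1, squares for replicate 2, open where the probe was not well above background, and black bars for the mean of 2 arrays. Meox1 and Tcf15 are higher on both red points, Msgn1 spans −4.41 to −1.26 within the RFP-negative fraction, and Meox2 and Ebf2 are open on all 4 arrays.

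The presomitic and boundary genes come first. For the 3 members that act there, the sequence just before the RefSeq start site (GRCm38.p6) is shown, because these genes are known targets of T-box, basic helix-loop-helix and Notch factors whose transcripts were measured on the same arrays. Each run is 250 bases, 5′ to 3′ on the strand of the gene. Capitals mark matches on either strand to TCACAC (the T-box core, GTGTGA on the other strand), CANNTG (the E-box bound by basic helix-loop-helix factors, a palindrome) or GTGGGAA (the site of RBPJ, the DNA-binding partner of Notch, TTCCCAC on the other strand). No matches overlapped in these runs.

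Msgn1, chr12:11208949-11209198, minus strand: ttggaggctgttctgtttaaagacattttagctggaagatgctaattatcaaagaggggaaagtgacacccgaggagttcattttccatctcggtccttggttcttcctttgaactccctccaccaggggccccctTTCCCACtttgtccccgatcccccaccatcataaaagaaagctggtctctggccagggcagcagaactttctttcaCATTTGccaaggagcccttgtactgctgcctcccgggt
Mesp2, chr7:79810477-79810726, plus strand: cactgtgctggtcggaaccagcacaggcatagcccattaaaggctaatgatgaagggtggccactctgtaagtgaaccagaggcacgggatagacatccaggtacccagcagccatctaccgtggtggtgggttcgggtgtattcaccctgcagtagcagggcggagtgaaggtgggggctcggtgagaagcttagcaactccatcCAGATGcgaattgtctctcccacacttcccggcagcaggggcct
Ripply2, chr9:87015287-87015536, plus strand: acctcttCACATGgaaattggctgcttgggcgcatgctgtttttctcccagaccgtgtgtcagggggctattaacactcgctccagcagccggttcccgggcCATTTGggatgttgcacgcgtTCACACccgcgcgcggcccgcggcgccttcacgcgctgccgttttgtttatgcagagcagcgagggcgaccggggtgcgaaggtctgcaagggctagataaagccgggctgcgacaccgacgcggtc

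The T-box core occurred once upstream of Ripply2, where it lay 127 to 122 bases before the start, and 0 times in the windows of Msgn1 and Mesp2. In these runs the RBPJ letters occurred once, upstream of Msgn1, 114 to 108 bases before the start. E-boxes numbered 1 for Msgn1 (CATTTG), 1 for Mesp2 (CAGATG) and 2 for Ripply2 (CACATG and CATTTG). Over all 32851 promoter entries of the same length, 12.3% held the T-box core, 66.2% an E-box and 5.42% the RBPJ letters. Of the 10 regulators, 6 have an entry in the promoter table. Among those not printed, an entry of Ebf1 held both the T-box core and the RBPJ letters. The other entry of Ebf1 and those of Meox2 and Uncx held neither. A match is a run of letters, not a measured site, and its absence covers this window alone.

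Msgn1, a basic helix-loop-helix factor that drives maturation of presomitic mesoderm, had processed signals of 8.63 and 87.2 on RFP-negative replicates 1 and 2, and of 26.8 and 28.8 on RFP-positive replicates 1 and 2. RFP-negative replicate 1 was not well above background and replicate 2 was the brightest of all, so both RFP-positive arrays lay between them. With replicate 1 set to the lowest signal that array detected, the RFP-negative arrays were at least 2.74 apart on the log2 scale, and the RFP-positive arrays were 0.18 apart. The fraction means were −2.83 ± 2.23 and −3.03 ± 0.12 (SD, n = 2 each). The difference was −0.20 (SE 1.05, limma adjusted p 0.955), with a 95% interval of −2.93 to 2.53, and it turned to 1.38 without RFP-negative replicate 2. Both of these use the signal of replicate 1 as measured, at background. Msgn1 therefore had no direction on these arrays.

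Mesp2, a basic helix-loop-helix factor that fixes the segment border and the anterior identity of the coming somite, gave 122.1 and 105.9 on the RFP-negative arrays and 114.9 and 128.4 on the RFP-positive arrays. All 4 values were well above background and the fractions overlapped. The difference was −0.12 (SE 0.26, limma adjusted p 0.894), with a 95% interval of −0.79 to 0.55. That interval leaves room for a change of up to 0.577-fold or 1.46-fold.

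Ripply2, which ends the Mesp2 phase by repressing Tbx6-driven transcription, gave 59.8 and 60.6 on the RFP-negative arrays. On the RFP-positive arrays it gave 65.2 and 52.7, 1 above and 1 below them. Relative to the array's 75th percentile, RFP-positive replicate 2 was the lowest of the 4, at −2.24 against −1.78 to −1.61 on the others. The difference was −0.26 (SE 0.30, limma adjusted p 0.815), with a 95% interval of −1.03 to 0.51, and it was 0.035 without that array.

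The genes of the formed somite followed. Tcf15, also called paraxis, is a basic helix-loop-helix factor needed for somites to become epithelial. Its probe gave 30.8 and 33.7 on the RFP-negative arrays and 65.0 and 81.3 on the RFP-positive arrays. Both RFP-positive values were higher, and the lowest of them stood 1.87-fold above the highest RFP-negative value after scaling. The means were −2.60 ± 0.04 and −1.64 ± 0.03 (SD, n = 2 each), so the arrays of a fraction lay close together. The difference of 0.96 (SE 0.22), or 1.94-fold, had a 95% interval of 0.38 to 1.54 and a limma adjusted p of 0.659, and it was 0.49 after normexp background correction with quantile normalization. In that setting an offset of 50 was added to each signal, which by itself shrinks the log2 differences of dim probes. By unadjusted p (0.00859, limma) Tcf15 ranked 172 of 13433 genes tested.

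Meox1, a homeobox factor of the early somite and sclerotome, gave 30.1 and 58.4 on the RFP-negative arrays and 117.1 and 120.3 on the RFP-positive arrays. The RFP-positive values were close to each other and above both RFP-negative values, with a smallest gap of 1.72-fold after scaling. The RFP-negative arrays themselves differed by 1.71-fold. The means were −2.22 ± 0.54 and −0.94 ± 0.17 (SD, n = 2 each). The difference of 1.28 (SE 0.34), or 2.43-fold, had a 95% interval of 0.39 to 2.17 and a limma adjusted p of 0.704, at rank 268 by unadjusted p. It was 0.71 with normexp and ran from 0.90 without RFP-negative replicate 1 to 1.67 without RFP-negative replicate 2.

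Meox2, the second Meox gene, which also acts in limb muscle and vascular cells, gave 2.60 and 2.55 on the RFP-negative arrays and 3.05 and 2.77 on the RFP-positive arrays. None of these was well above background, so no level or fold was measured for it. The near relative Meox1 was thus read on all 4 arrays and Meox2 on none, each through 1 probe.

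Uncx, a homeobox factor of the posterior sclerotome, gave 69.8 and 40.3 on the RFP-negative arrays and 63.1 and 51.6 on the RFP-positive arrays. Replicate 1 was the higher array in both fractions, and the RFP-positive values lay inside the RFP-negative range. The difference was −0.11 (SE 0.43, limma adjusted p 0.940), with a 95% interval of −1.23 to 1.002. It turned to 0.38 without RFP-negative replicate 1 and to 0.17 without RFP-positive replicate 2.

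Pax3, a paired-box factor of the dermomyotome that neural crest and the dorsal neural tube also use, had 2 probes. The one printed in 10 spots was not well above background in any spot of any array, with single-spot signals from 2.38 to 11.1. The other, in 1 spot, was well above background on all 4 arrays, though dim, with 15.3 and 23.5 on the RFP-negative and 14.9 and 18.2 on the RFP-positive arrays. The fractions overlapped in processed signal, but after scaling both RFP-positive values, at −3.79 and −3.78, were below the RFP-negative ones, at −3.58 and −3.15. The difference was −0.42 (SE 0.26, limma adjusted p 0.7504), with a 95% interval of −1.11 to 0.26, and −0.05 with normexp. Both probes carry the same accession. The fit used the brighter one, so the Pax3 value rests on 1 dim spot per array, and the probe with 10 spots did not detect Pax3.

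Ebf1, an early B-cell factor that also acts in somite derivatives, stroma and fat cells, gave 42.8 and 46.5 on the RFP-negative and 39.5 and 56.4 on the RFP-positive arrays. The RFP-positive signals lay on either side of the RFP-negative ones, and after scaling the fractions overlapped, at −2.39 and −2.15 against −2.10 and −2.16. The difference was −0.14 (SE 0.24, limma adjusted p 0.875), with a 95% interval of −0.75 to 0.48. Ebf2, a relative that is also known from brown fat precursors, gave 2.27 and 2.22 on the RFP-negative arrays and 2.60 and 4.90 on the RFP-positive arrays, none of them well above background.

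**Figure D2:**
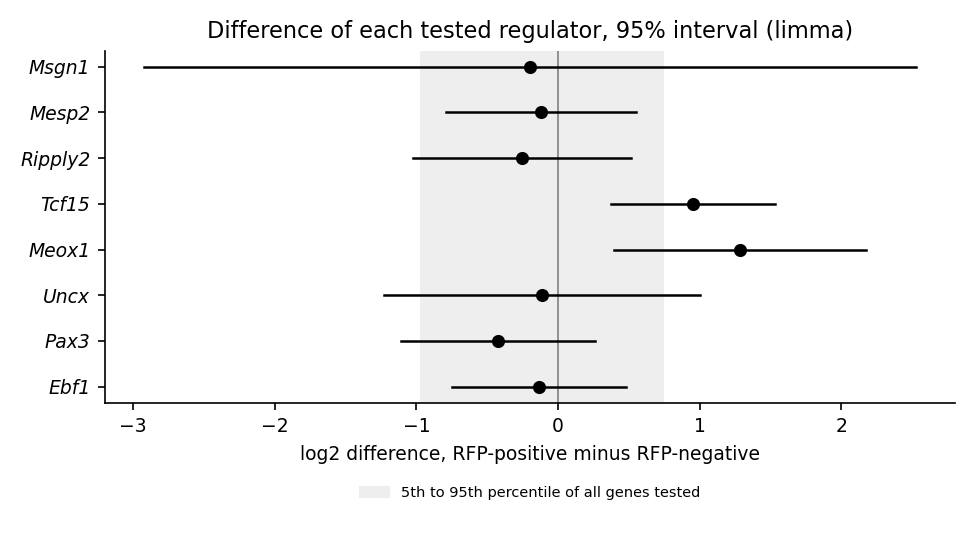
Log2 difference, RFP-positive minus RFP-negative (horizontal axis), for the 8 regulators tested (vertical axis), with the limma estimate as a point, its 95% interval as a line, and a grey band from the 5th to the 95th percentile of all genes tested (−0.97 to 0.74). The intervals of Tcf15 and Meox1 lie above 0 before adjustment over genes, the other 6 include 0, and that of Msgn1 is the widest.

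The tested genes nearest to each regulator over the 4 arrays were found, by Euclidean distance between log2 profiles centred on their means. With 4 arrays this is a description only. Among the nearest to Tcf15 was Zfp551, at 0.104, and 404 genes lay within 0.5, a count that takes in genes not detected on every array. Vmn2r113, also near Tcf15, and the 3 nearest to Meox1, Ube2d-ps, Cttnbp2 and Stag3, were not well above background on 1 or both RFP-negative arrays, so their distances are not given. Nearest to Uncx were Zswim4, Samd14 and Sytl3, with 738 genes within 0.5. For Pax3 they were Flrt2, Dnlz and Vps50, for Mesp2 Vamp3, Zfp593 and Ccnl1, for Ripply2 Fbxo22, Sod1 and Utp11, and for Ebf1 Stat6, Lrpap1 and Pakap. Between 2590 and 5155 genes lay within 0.5 of each of these 4.

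The other genes of the somite programme were read from 6 lists by role, 62 genes, all with a probe. Of these, 52 were tested, 8 were well above background on none of the 4 arrays, and 0 passed an adjusted p of 0.05. Without overlap 9 were higher (18.8% of all genes tested were) and 8 were lower (21.6%), and 35 overlapped. The 8 include Dmrt2 and Met, which entered the test through detection on the RFP-negative arrays alone, where they were higher. By size 1 gene, Tbx6, met the 2-fold rule above.

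Tbx6, the T-box factor that directs presomitic cells to a mesodermal fate and activates Mesp2 and Ripply2, was at −1.74 and −1.87 on the RFP-negative and −3.06 and −3.05 on the RFP-positive arrays. Its difference of −1.24 (SE 0.23, limma adjusted p 0.581) stood beside overlapping values for Mesp2 and Ripply2. A second Tbx6 probe was also lower without overlap, by 0.92, at −2.53 and −1.93 against −3.53 and −2.78. The presomitic list, 9 of 10 genes tested, had a median of 0.08, with 2 genes higher and 2 lower without overlap. Pdgfra, the receptor that marks paraxial mesoderm, differed by 0.79 (limma adjusted p 0.745), and Mesp1, a factor of the earliest mesoderm, by −0.74 (limma adjusted p 0.745).

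All 13 segmentation clock genes were tested, with a median of −0.05, and 2 were higher and 1 lower without overlap. Lfng, the Fringe enzyme that tunes Notch in each cycle, was at 0.31 and 0.78 on the RFP-negative and −1.42 and −0.40 on the RFP-positive arrays, a difference of −1.45 (SE 0.43, limma adjusted p 0.727). Hes7, the core clock repressor, differed by 0.57 (limma adjusted p 0.745) the other way, and the Notch ligand Dll1 differed by −0.51 with overlap (limma adjusted p 0.762). The clock genes thus did not share a direction.

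Of the boundary genes 8 of 9 were tested, with a median of 0.16. Snai1, a repressor of epithelial genes, differed by −0.79 (limma adjusted p 0.745) without overlap, while Cer1 and Ripply1 differed by 0.63 and 0.79 with overlap. Ripply1, the relative of Ripply2, was spread over −3.84 to −2.37 in the RFP-negative and −2.84 to −1.79 in the RFP-positive fraction. The sclerotome list, 6 of 9 genes tested, had a median of 0.30, with 2 genes higher and 0 lower without overlap. These were Twist1, at 0.44, and Foxc2, a forkhead factor of sclerotome and vessels, at 0.47. Scx, which marks the tendon precursors, differed by 0.65 with overlap, with RFP-positive replicate 2 at 0.33 and replicate 1 at −2.42.

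In the dermomyotome and muscle list 9 of 14 genes were tested, with a median of −0.19, and 0 were higher and 4 lower without overlap. Among these 4 are Dmrt2 and Met, which entered the test through detection on the RFP-negative arrays alone. That favoured a lower value for both, so the count and the median depend partly on the rule for testing. Dmrt2, a regulator of the dermomyotome that Pax3 is known to control, was well above background on both RFP-negative arrays and on neither RFP-positive array, so that its RFP-negative level exceeded the other by at least 1.69-fold (limma adjusted p 0.660 for the signals themselves). Met, the receptor that migrating muscle precursors use, had the same detection pattern with a bound of at least 2.02-fold in the same direction (limma adjusted p 0.745). Such a bound sets the RFP-negative mean against, on each RFP-positive array, the gene's own signal or that of the dimmest probe counted as detected, whichever is higher. Among family members and partners, all 7 were tested, with a median of 0.28 and 3 higher and 0 lower without overlap. Zfp521 and Zfp423, zinc finger proteins that bind Ebf factors, differed by 1.07 and 0.77 (limma adjusted p 0.745 each), and Ebf4 by 0.28 with overlap.

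**Figure D3:**
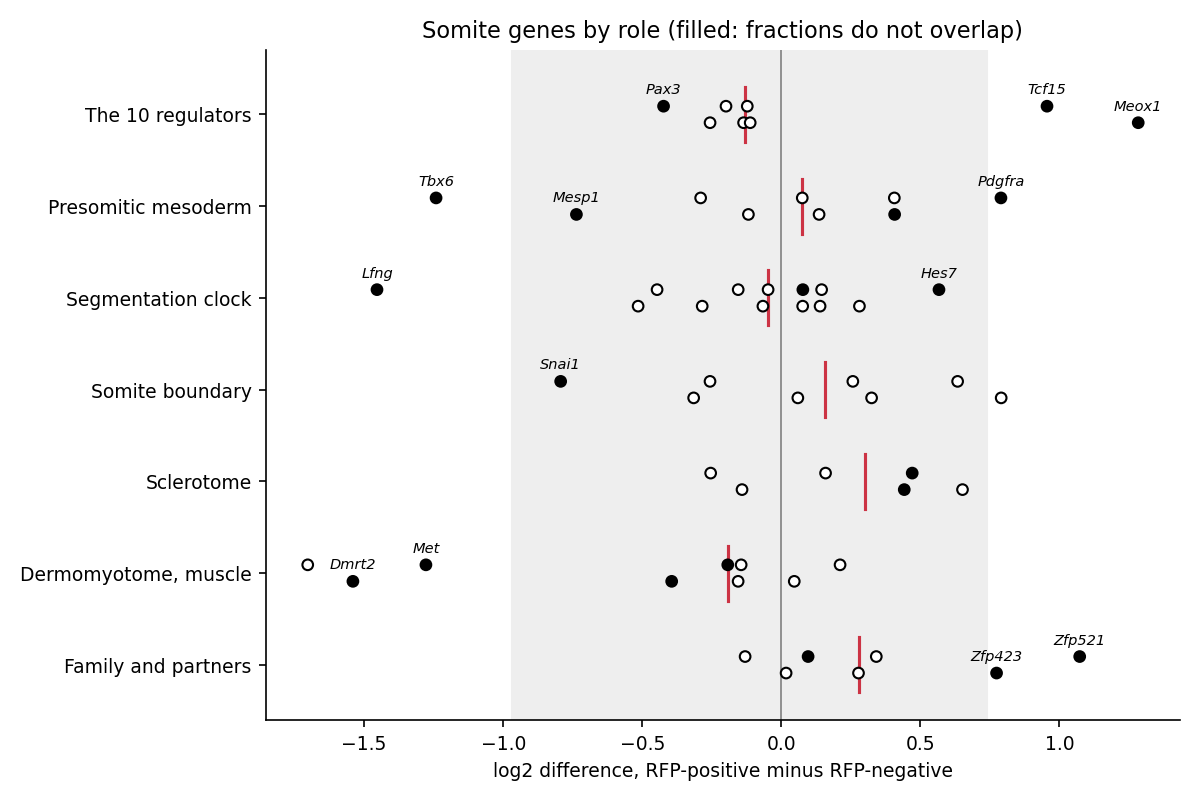
Log2 difference, RFP-positive minus RFP-negative (horizontal axis), of each tested gene in the 10 regulators and in 6 lists of other somite genes (rows), filled where the fractions did not overlap, with a red bar at the row's median and a grey band from the 5th to the 95th percentile of all genes tested. Tcf15, Meox1, Pdgfra, Ripply1, Zfp521 and Zfp423 lie right of the band, Tbx6, Lfng, Eya2, Dmrt2 and Met left of it, and the medians run from −0.19 to 0.30.

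Markers of other cell types were read on the same arrays. None of them passed an adjusted p of 0.05 in limma, and in sorted bulk RNA fewer cells of a type and less RNA per cell cannot be told apart. Of all genes tested, 18.8% were higher and 21.6% lower without overlap, and the counts below stand beside those shares. All 10 adipocyte markers were lower in RFP-positive cells without overlap, and their summed linear level (in units of the array's 75th percentile) was 51.2 to 62.4 in RFP-negative and 16.1 to 21.5 in RFP-positive cells. Fabp4 alone made up 50.2% to 57.6% of that sum. The other adipocyte markers summed to 22.1 to 31.1 in RFP-negative and 7.80 to 9.13 in RFP-positive cells. Cidec, a lipid droplet protein, differed by −2.54, the complement protease Cfd by −1.81 and Pparg, the master regulator of fat cells, by −1.41 (limma adjusted p 0.447 to 0.581). Of 10 stromal and fibroblast markers 8 were tested and 7 were lower without overlap, while Postn and Dcn were well above background on no array. The summed level of the stromal list was 65.1 to 106.4 in RFP-negative and 42.2 to 54.7 in RFP-positive cells. Cxcl12 alone made up 58.3% to 65.0% of that sum. The other stromal markers summed to 23.9 to 38.9 in RFP-negative and 17.6 to 19.2 in RFP-positive cells. Vcam1 was at −1.50, Col1a1 at −0.85 and Thy1 at −0.89. Ebf1, which stroma and fat cells also use, overlapped between the same fractions.

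Blood markers had a summed level of 2.85 to 2.87 in RFP-negative and 4.10 to 5.87 in RFP-positive cells, with 4 of 7 tested higher and 1 lower without overlap. Hbb-bh1, an embryonic globin, made up 24.5% to 64.3% of that sum and overlapped between the fractions, and without it the sum was 1.37 to 1.52 in RFP-negative and 2.09 to 3.10 in RFP-positive cells. Runx1 differed by 1.54 on the probe used and by −0.02 on its other probe, Gata1 by 1.44 and Myb, not well above background on 1 RFP-negative array, by 1.29 in measured signal. Only RFP-positive cells had Myb detected on both arrays, so the rule for testing favoured its place among the 4 higher. The lower one was Spi1, a myeloid factor, at −1.11 (Hbb-bh1 and Spi1 were picked out after their values were seen), while Hba-x and Gfi1b were well above background on no array. Endothelial markers summed to 40.7 to 41.1 in RFP-negative and 46.0 to 65.4 in RFP-positive cells, with 4 of 10 higher without overlap, among them Sox7 at 0.83, Tek at 0.40 and Cdh5 at 0.53, and the other 6 overlapping, down to −0.24. Neural markers, beside which the Pax3 value is read, summed to 22.5 to 28.5 in RFP-negative and 18.8 to 20.3 in RFP-positive cells. Tubb3 alone made up 92.7% to 95.2% of that sum, and the other markers summed to 1.42 to 1.43 and 0.967 to 1.38. Of 5 tested, 2 were lower and 1 higher without overlap, with Neurog1 at −0.57, Tubb3 at −0.38 and Sox1 at −0.55 (overlapping), and Pax6 and Foxd3 were well above background on no array. Lateral plate and cardiac markers overlapped in sum, at 17.2 to 23.99 and 21.1 to 23.99. Of 10 tested, 3 were higher and 0 lower without overlap, and 7 overlapped. Tbx5, not well above background on 1 RFP-negative array, was at 1.28 in measured signal, Bmp4 at 0.52 and Foxf1 at −0.57 (overlapping). As for Myb, only RFP-positive cells had Tbx5 detected on both arrays, which favoured its place among the 3 higher. Of 8 B lymphoid markers 5 (Cd79b, Vpreb1, Igll1, Rag1 and Il7r) were well above background on no array, the list summed to 0.360 to 0.559 and 0.284 to 0.538, and Pax5 and Cd79a (the latter not well above background on 1 RFP-negative array) differed by 0.02 and −0.38 with overlap. The part of any of these cell types in the values of the 10 regulators was not tested.

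**Figure D4:**
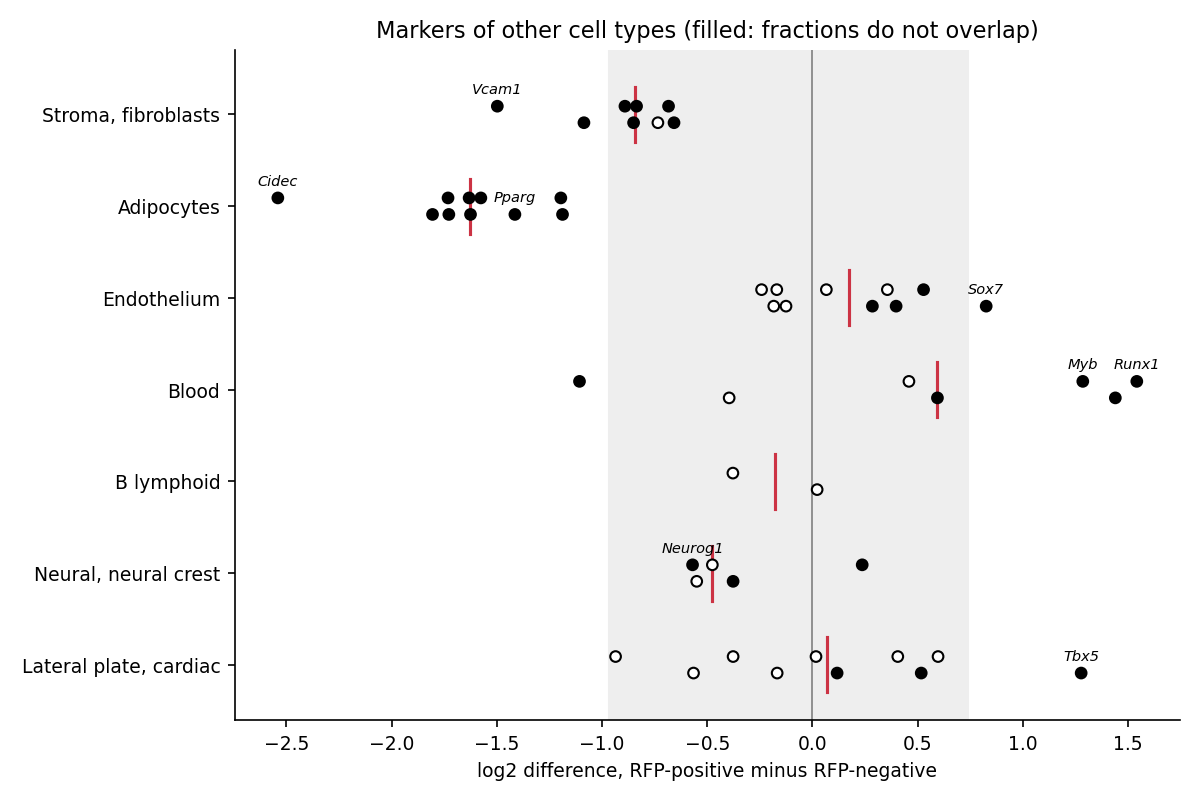
Log2 difference, RFP-positive minus RFP-negative (horizontal axis), of each tested marker in 7 lists of other cell types (rows), filled where the fractions did not overlap, with a red bar at the row's median and a grey band from the 5th to the 95th percentile of all genes tested. The adipocyte points, Vcam1, Timp1 and Spi1 lie left of the band, and Runx1, Gata1, Myb, Tbx5 and Sox7 lie right of it.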

How the data were processed

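Total RNA of 4 sorted samples, 2 per fraction, was measured on one-colour (Cy3) Agilent arrays. The intensity values are processed spot signals that the scanner software (Feature Extraction version 10.10.1.1 by Agilent) had corrected for background, per the file headers. The deposited value table (array medians 133.9 to 143.9, linear, not centred) was checked on every non-control spot and holds the same intensity times 1 constant per array, 5.39 to 6.45, for which no source here gives the rule. Of 62976 spots, 3671 controls were left out, as were spots marked as outliers (115 to 153 per array). Each signal was divided by the 75th percentile of its array, log2 was taken, and spots of a probe were averaged. Probes were named through RefSeq accessions (GRCm38.p6 table): of 55681 probes, 27235 had 1 symbol, 0 several and 28446 none. Coordinates other than those of the promoter table are not given, because the array design is annotated on another build.

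The probe of highest mean stood for a gene, and testing required detection (well above background, for a probe in several spots in most of them) on both arrays of at least 1 fraction. For the test of RFP-positive against RFP-negative, lmFit and eBayes of limma 3.58.1 were run under R 4.3.3 (two-sided, no block, 2 residual and 2.77 prior degrees of freedom), adjusted over 13433 genes. Named were the 10 regulators, Kdr and Hoxb6, the 3 tested genes with the lowest p in each list (2 where 2 were tested), and the 3 nearest profiles of each regulator measured on 4 arrays; a few genes that this rule names are not reported here. Fabp4 and Cxcl12 were named for their share of a marker sum. The members and lists were chosen with earlier results of these data known. The fit was also run on simulated data, where it recovered the simulated folds and unadjusted p-values. No simulated gene passed the adjusted p threshold at any simulated fold. With this number of arrays, the lack of genes passing that threshold therefore says little about absence of change. Files were read with pandas 2.3.3 and figures drawn with matplotlib 3.10.9.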

Additional observations from a re-analysis of the deposited data

How the results depend on the processing

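With 14 alternatives (other scalings, background correction, the deposited value table, dim-probe filters, probe rules, a variance trend, the replicate block and each array left out), limma called 0 genes in each (the deposited table gives the reported values by construction, so it is no separate check), with a smallest adjusted p from 0.0787 to 0.998 and 387 to 2753 genes at an unadjusted p under 0.05. The signs of 4 of the 8 regulators tested held in all 14, Meox1 at 0.71 (normexp) to 1.67, Tcf15 at 0.49 (normexp) to 1.04, Pax3 at −0.64 to −0.05 (normexp) and Ebf1 at −0.26 to −0.016. The sign of the other 4 turned in at least 1. The dim-probe filters, the variance trend and the replicate block leave each difference as it is, so they could not turn a sign. Nor could leaving out 1 array for Meox1, Tcf15 and Pax3, whose fractions did not overlap. For Meox1 and Tcf15, each with 1 probe, only the other scalings and the background correction could do so. Normexp was run with an offset of 50, which shrinks the log2 differences of dim probes. Msgn1, which a filter on all 4 arrays leaves out, was at 0.053 with normexp, and over the arrays left out the ranges were −1.78 to 1.38 for Msgn1, −0.32 to 0.072 for Mesp2, −0.60 to 0.38 for Uncx and −0.55 to 0.035 for Ripply2. The count of regulators at least 2-fold apart was 0 to 2 with 1 array left out, beside 2.85% to 10.95% of all genes. That of regulators without overlap was 4 to 8: 6 and 8 without RFP-negative replicates 1 and 2, beside 65.3% and 67.7% of all genes, and 4 and 4 without RFP-positive replicates 1 and 2, beside 81.3% and 66.4%. With 1 array left out, both counts and both shares over all genes can only stay or rise, so their rise is no result about the regulators. The replicate numbers gave no sign of pairing, with a correlation of 0.092 between the deviations of the arrays numbered 1. With the replicate number as a block, limma called 0 genes, 1038 had an unadjusted p under 0.05, and the adjusted p was 0.637 for Meox1 and Tcf15. The choice of the non-overlap count was made after seeing the data. The number of arrays limits the precision: the standard errors of the 8 differences ran from 0.22 to 1.05, and Msgn1 was read above background on 3 arrays.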

Other observations

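These values were singled out after they were seen. In the skeletal muscle list, Myod1, a master regulator of muscle, and Myog, which acts later, were well above background on all 4 arrays, with differences of 0.05 and −0.16, while Pax7, Sim1, En1, Myf5 and Myf6 were not well above background on any. Eya2, a transcriptional cofactor, was at −1.10 and 0.23 on the RFP-negative arrays and at −0.65 and −3.62 on the RFP-positive arrays, so RFP-positive replicate 2 alone was low.

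Genes well above background on 1 array alone numbered 198 for RFP-negative replicate 1, 416 for RFP-negative replicate 2, 116 for RFP-positive replicate 1 and 490 for RFP-positive replicate 2. On RFP-negative replicate 2, which also had the highest Msgn1 signal, Tbx18, a T-box factor of the anterior somite, was at −2.57, and it was not well above background on the other arrays.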
